A study of Mus musculus with 7 samples.

Results

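Type I interferon-stimulated genes are genes whose transcription rises when a cell senses interferon alpha or beta. The set described here holds 43 such genes of the mouse, listed by name as known interferon-induced genes, with earlier results of these data already seen. Of these 43 genes, 41 had a row among the 20859 genes of the deposited count table, and Ifitm2 and Oas3 were not analysed here. Levels were measured by mcSCRB-seq, a bulk RNA-seq method that reads the 3′ ends of polyadenylated RNA, in cortex and hippocampus of mice in 3 groups. The WT PBS mice were wild type and received PBS. The FAD IgG and FAD CD38 mice carried the genotype labelled FAD, in a study whose title names a mouse model of Alzheimer's disease, and received the injection labelled IgG or CD38. Genotype and injection therefore differ together in any comparison with WT, and their shares in it cannot be told apart, since no FAD mice with PBS and no WT mice with IgG were measured. The labels do not give the strain, age or promoter of the FAD mice, or the form and dose of the CD38 injection.

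Type I interferons bind the receptor pair IFNAR1 and IFNAR2, which activates the kinases JAK1 and TYK2. These phosphorylate STAT proteins, among them STAT2, which together with IRF9 belongs to the complex ISGF3, and ISGF3 binds the interferon-stimulated response element (ISRE) in the promoters of its target genes. In brain, microglia are known to express many of these genes, and an interferon-responsive state of microglia is known from mice with amyloid deposits.

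The promoters of the set were searched for the elements these factors bind. RefSeq promoters of 300 bases (250 before and 50 after the start, build GRCm38.p6) could be matched for 32 of the 43 members. They were searched on both strands for an ISRE core, GAAANNGAAA, and for the core of the gamma-activated site (GAS), TTCNNNGAA, which dimers of STAT proteins bind. The 2 patterns can overlap. The ISRE core was found in 16 of 39 member promoters (41%) and in 1131 of all 32851 promoters (3.44%). By gene, 15 of 32 members (46.9%) held it: Bst2, Ddx58, Ifi207, Ifih1, Ifit1, Ifit3, Ifit3b, Ifitm2, Ifitm3, Isg15, Oas1a, Oas3, Rsad2, Stat2 and Trim30a. The GAS core was found in 7 of 39 member promoters (17.9%) and in 8.3% of all promoters. A match is a description of letters and not a measured binding site. The 6 members with at least 2 ISRE cores before the start are printed to show how the cores are spaced. Each stretch reads 5′ to 3′ on the strand of the gene, has the matched bases in capitals and up to 20 bases on either side, and stops before the start. They come from chr8:71537567-71537622 (minus strand) for Bst2, chr19:34640765-34640833 (plus) for Ifit1, chr19:34583353-34583436 (plus) for Ifit3, chr19:34607749-34607832 (plus) for Ifit3b, chr4:156200855-156200916 (minus) for Isg15 and chr5:120907526-120907565 (minus) for Oas1a.
Bst2: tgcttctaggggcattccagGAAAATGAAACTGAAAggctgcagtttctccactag
Ifit1: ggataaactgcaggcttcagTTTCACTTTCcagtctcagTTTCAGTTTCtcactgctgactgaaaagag
Ifit3: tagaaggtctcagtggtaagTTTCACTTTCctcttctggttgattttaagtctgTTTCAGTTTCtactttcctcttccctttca
Ifit3b: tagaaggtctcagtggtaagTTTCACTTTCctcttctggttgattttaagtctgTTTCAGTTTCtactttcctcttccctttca
Isg15: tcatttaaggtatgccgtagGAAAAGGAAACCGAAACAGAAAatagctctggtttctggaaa
Oas1a: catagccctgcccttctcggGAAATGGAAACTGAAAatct
The first matched base lay 130 bases before the start in Bst2, 104 in Ifit1, 156 in Ifit3, 188 in Ifit3b, 78 in Isg15 and 20 in Oas1a. Ifit3 and Ifit3b carry the same 84 bases, and Isg15 holds 3 overlapping cores in a row.

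The 47 wells came from 24 mice in 7 library pools and held 1270918 to 5101368 counts each. WT PBS had 9 cortex and 8 hippocampus wells, and FAD IgG and FAD CD38 had 7 of each. Both regions came from the same mice, and each replicate is a mouse. A FAD mouse of pool 8 was listed as CD38 in the deposited sheet but as IgG in its well names, and its 2 wells entered no group. Ribosomal RNA genes took over 15% of the counts in 3 hippocampus wells, with the highest share, 23.7%, in a WT PBS mouse of pool 8. Region markers fitted the labels, with hippocampal markers (C1ql2, Spink8, Cabp7 and Prox1) summing to 171 to 409 counts per 1000000 counts of the well (CPM) in hippocampus and 12.2 to 25.7 CPM in cortex.

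The interferon-stimulated genes were higher in FAD than in WT mice in both regions, with either injection. Summed over the 41 members, the lowest, median and highest level in WT PBS cortex was 209, 262 and 286 CPM, against 485, 557 and 721 CPM in FAD IgG and 399, 566 and 747 CPM in FAD CD38. In hippocampus the sums were 155, 264 and 288 CPM in WT PBS, 523, 686 and 933 CPM in FAD IgG and 394, 554 and 775 CPM in FAD CD38. No FAD mouse of either injection had a sum as low as the highest WT mouse, while the 2 FAD groups overlapped in both regions. In each of the 6 pools that held both groups, the FAD IgG sum lay above the WT PBS sum, by 0.98 to 1.45 on the log2 scale in cortex and 0.997 to 1.73 in hippocampus. These sums lean on Ifi27 and Ifitm3, the 2 members with the most counts. Without them the FAD IgG sums ran from 334 to 471 CPM in cortex and the WT PBS sums from 117 to 157 CPM, and in hippocampus from 318 to 651 CPM and from 92.6 to 135 CPM. These smaller sums still hold Lgals3bp, whose mean over all wells (60.3 CPM) was close to that of Ifitm3 (60.7 CPM). Its mean was 16.8 CPM in WT PBS and 91.0 CPM in FAD IgG cortex, and 13.4 and 94.3 CPM in hippocampus. Sums without it were not determined.

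**Figure D1:**
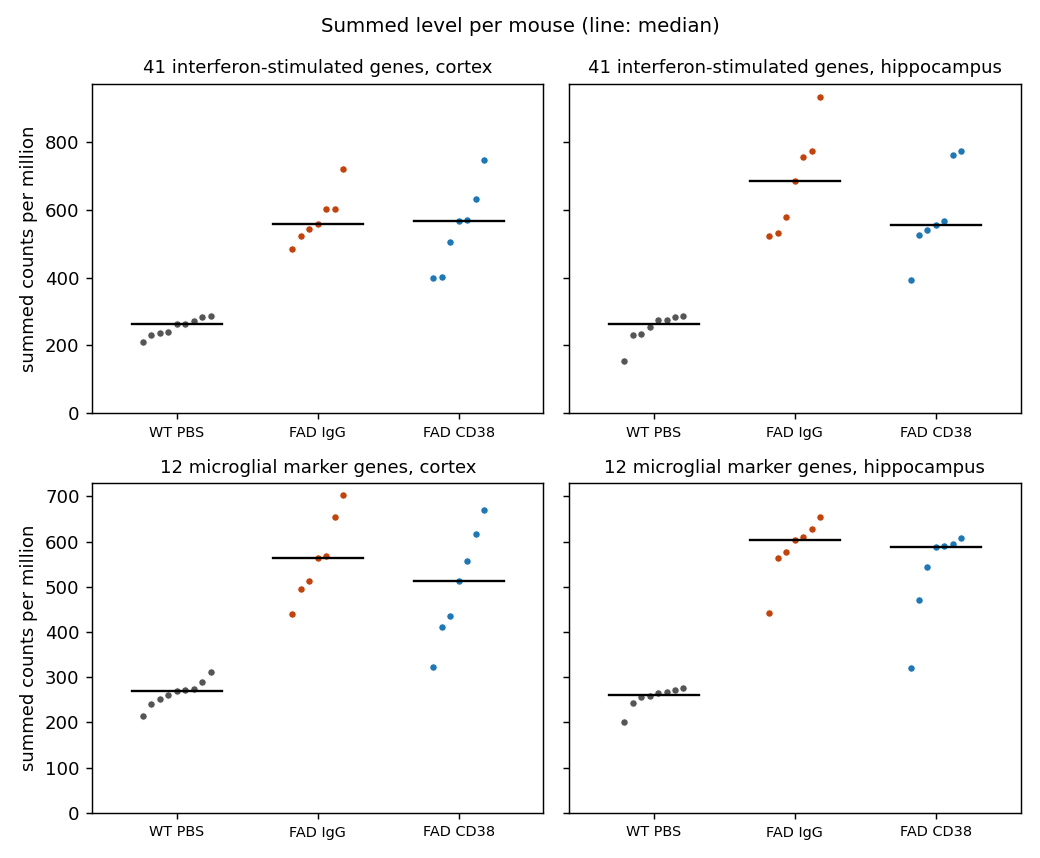
Summed CPM of the 41 interferon-stimulated genes (top) and of 12 microglial marker genes (bottom) per mouse, by group, in cortex (left) and hippocampus (right). Each point is 1 mouse and the line is the group median; all FAD mice lie above all WT mice in the 4 panels, and the FAD IgG and FAD CD38 mice overlap.

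Markers of microglia moved with the set. The 12 homeostatic microglial genes (such as Cx3cr1, P2ry12 and Tmem119) summed to 214 to 311 CPM in WT PBS cortex, 439 to 704 CPM in FAD IgG and 322 to 671 CPM in FAD CD38. In hippocampus the ranges were 202 to 277, 441 to 655 and 321 to 608 CPM. In FAD IgG against WT PBS, 9 of these 12 genes were higher in cortex and 11 of 12 in hippocampus, with median log2 fold changes of 1.09 and 1.25. The 12 genes of plaque-associated microglia (such as Cst7, Clec7a and Itgax) had 11 of 12 and 12 of 12 higher, with medians of 2.74 and 3.01. None of these 24 markers was at 0 in any group. Markers of endothelium (0 of 7 tested in cortex and 0 of 6 in hippocampus), oligodendrocytes and neurons (0 of 6 each in both regions) were not called in either direction, and 1 of 8 astrocyte markers was higher in cortex and 2 of 8 in hippocampus. The 7 markers of T and NK cells were all under the count filter, with sums of 0.273 to 3.85 CPM in WT PBS cortex and 2.59 to 8.65 CPM in FAD IgG cortex, and of 2.10 to 6.07 and 6.46 to 12.2 CPM in hippocampus. Choroid plexus markers, led by Ttr, summed to 3.14 to 1633 CPM over the cortex wells and 13.4 to 15600 CPM over the hippocampus wells. The part of these cell types in the results below was not tested, and in bulk tissue more cells of a type and more RNA per cell cannot be told apart.

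A gene was called where its adjusted p was under 0.05 in edgeR's quasi-likelihood test with Benjamini-Hochberg adjustment over all genes tested. Of the members, 28 passed the filter on low counts in cortex, where 12968 genes were tested, and 27 in hippocampus, where 12728 were. In FAD IgG against WT PBS, 19 of the 28 tested members were called higher in cortex and 0 lower, where 3.34% of all genes tested were called higher. In hippocampus 24 of 27 were called higher and 0 lower, against 4.48% of all genes tested. The median log2 fold change of the tested members was 1.07 in cortex and 1.60 in hippocampus, against 0.01 and 0.003 over all genes tested. Every FAD IgG mouse lay above every WT mouse for 11 of the 28 members in cortex and 16 of the 27 in hippocampus, which held for 1.89% and 2.95% of all genes tested. A member of low level could pass the filter through its FAD wells alone, so these counts cover only the members that passed. On the WT wells alone, 14 members would have passed in cortex, of which 12 were called higher, with a median of 1.28, and 11 in hippocampus, of which 10 were called, with a median of 1.66. The share called among all genes that would pass on the WT wells alone was not determined. With no filter, 24 of 41 members were called higher in cortex and 32 of 41 in hippocampus, against 2.58% and 3.27% of all genes.

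The IFIT genes encode proteins that bind foreign RNA and block its translation. Ifit3 had 10.1, 14.5 and 18.3 CPM (lowest, median, highest) in WT PBS cortex, 31.97, 41.3 and 57.8 CPM in FAD IgG and 25.1, 31.1 and 45.3 CPM in FAD CD38. In hippocampus its levels were 4.12, 11.1 and 13.1 CPM in WT PBS, 32.3, 39.9 and 57.0 CPM in FAD IgG and 19.6, 31.6 and 45.4 CPM in FAD CD38. All FAD mice lay above all WT mice in both regions. The log2 fold change of Ifit3 in FAD IgG against WT PBS was 1.64 (SE 0.13, 3.11-fold, adjusted p = 3.1e-09) in cortex and 2.05 (SE 0.20, 4.13-fold, adjusted p = 7.6e-07) in hippocampus. Its neighbour Ifit3b, whose promoter stretch is the same, rose alongside it, from a median of 6.24 to 18.5 CPM in cortex and from 6.54 to 22.0 CPM in hippocampus, with no overlap between FAD IgG and WT PBS. Of the 50-base windows in the last 500 bases of Ifit3, 14.9% also occur in Ifit3b, so how counts were shared between them is uncertain. Ifit1 and Ifit2 were called as well, with all 4 IFIT genes higher and free of overlap in both regions. Ifit1 rose by 1.27 on the log2 scale in cortex and 1.99 in hippocampus. Ifit2 rose by 1.05 in cortex (adjusted p = 0.041) and 1.21 in hippocampus, and its cortical call was lost in 6 of 17 alternative analyses, among them leaving out pool 5, 6, 8, 10 or 11.

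The ISG15 system couples the ubiquitin-like ISG15 to proteins, and USP18 removes it and dampens signalling from the receptor. Usp18 had 0.745, 1.26 and 3.99 CPM in WT PBS cortex, 4.92, 7.20 and 11.8 CPM in FAD IgG and 2.503, 4.53 and 10.2 CPM in FAD CD38. Its hippocampal levels were 0.342, 1.07 and 1.88 CPM in WT PBS, 3.595, 7.78 and 13.4 CPM in FAD IgG and 1.40, 4.82 and 12.5 CPM in FAD CD38. The FAD IgG mice did not overlap with WT in either region, while the lowest FAD CD38 mouse lay within the WT range in both. The log2 fold change of Usp18 in FAD IgG against WT PBS was 2.165 (SE 0.29, adjusted p = 1.6e-05) in cortex and 3.01 (SE 0.28, adjusted p = 3.3e-07) in hippocampus, an 8.05-fold difference and the second largest among the tested members there. Isg15 itself was under the filter. It had 34 counts over the 9 WT PBS cortex wells, 65 over the 7 FAD IgG wells and 50 over the 7 FAD CD38 wells, and in hippocampus 27, 87 and 62. Fitted with no filter, Isg15 had a log2 fold change of 1.11 (adjusted p = 0.15) in cortex and 2.24 (adjusted p = 0.00034) in hippocampus. Herc6, the ligase that attaches ISG15 in mice, was tested in cortex only and was not called (0.54, SE 0.31). In hippocampus Herc6 had 24 counts in WT PBS, 34 in FAD IgG and 28 in FAD CD38.

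Among the membrane proteins, IFITM3 blocks the entry of enveloped viruses and tetherin, the product of Bst2, holds budding virions at the cell surface. Ifitm3 had 25.15, 31.99 and 37.6 CPM in WT PBS cortex, 54.0, 72.6 and 88.0 CPM in FAD IgG and 45.5, 67.9 and 120 CPM in FAD CD38. Hippocampal levels were 9.88, 28.6 and 44.7 CPM in WT PBS, 69.3, 92.6 and 125 CPM in FAD IgG and 47.6, 69.0 and 124 CPM in FAD CD38, again with no FAD mouse in the WT range. The log2 fold change of Ifitm3 in FAD IgG against WT PBS was 1.17 (SE 0.13, adjusted p = 1.1e-06) in cortex and 1.69 (SE 0.23, adjusted p = 4.2e-05) in hippocampus. Bst2 rose from a median of 6.47 CPM (2.41 to 8.94) to 19.3 CPM (14.2 to 23.7) in cortex and from 7.09 CPM (4.12 to 8.77) to 28.3 CPM (18.8 to 37.7) in hippocampus, with log2 fold changes of 1.66 (SE 0.20) and 2.02 (SE 0.17). The FAD CD38 mice had 11.4 to 29.2 CPM of Bst2 in cortex and 23.5 to 34.3 CPM in hippocampus, all above WT. Rsad2 encodes viperin, which makes a chain-terminating nucleotide from the product of the neighbouring gene Cmpk2. Rsad2 rose in hippocampus (1.60, SE 0.29, adjusted p = 0.0011) and was not called in cortex (0.53, SE 0.30). Cmpk2 was called in neither region, with medians of 15.7 CPM in WT PBS and 15.2 CPM in FAD IgG cortex and 10.2 and 10.6 CPM in hippocampus. Its log2 fold changes of -0.04 (SE 0.15) and 0.18 (SE 0.18) were the smallest of any tested member in both regions. Mx1 was under the filter, with 4 counts in WT PBS and 9 in FAD IgG cortex and 1 and 19 in hippocampus, where it was called with no filter (adjusted p = 0.012).

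The OAS family makes the second messenger that switches on RNase L, and ISG20 degrades RNA. Oasl2, an OAS-like gene, had 0.481, 1.49 and 4.64 CPM in WT PBS cortex, 3.15, 8.54 and 16.9 CPM in FAD IgG and 3.34, 7.22 and 12.8 CPM in FAD CD38. In hippocampus it had 0.536, 1.81 and 4.29 CPM in WT PBS, 4.79, 8.26 and 19.9 CPM in FAD IgG and 3.50, 5.22 and 15.5 CPM in FAD CD38. The FAD IgG and WT groups were separate in hippocampus and overlapped in cortex, where the lowest FAD IgG mouse lay below the highest WT mouse. Its log2 fold changes in FAD IgG against WT PBS were 2.33 (SE 0.33, adjusted p = 2.8e-05) and 2.55 (SE 0.38, adjusted p = 0.00013). Isg20 was called in cortex (1.23, SE 0.29, adjusted p = 0.013), though not without pool 6, and not in hippocampus (1.11, SE 0.35, adjusted p = 0.087). Its levels were 0.780, 1.31 and 1.86 CPM in WT PBS and 1.57, 2.72 and 4.51 CPM in FAD IgG cortex. Oas1a, Oas2 and Oasl1 were under the filter in both regions. Oas1a had 16 counts in WT PBS, 46 in FAD IgG and 42 in FAD CD38 cortex and 7, 41 and 35 in hippocampus, and was called with no filter in both regions. Oasl1 had 2, 16 and 16 counts in cortex, where it was called with no filter (adjusted p = 0.023), and 6, 14 and 6 in hippocampus, where it was not. Oas2 had 3, 7 and 5 counts in cortex and 6, 14 and 2 in hippocampus and was called in neither. The 3′ end of Oas1a shares 56.1% of its 50-base windows with Oas1g, so the counts of Oas1a are uncertain.

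The sensors detect nucleic acids in the cytosol, RIG-I (Ddx58) and MDA5 (Ifih1) through RNA. Ddx58 had 0.808, 2.37 and 3.73 CPM in WT PBS cortex, 2.36, 2.99 and 5.18 CPM in FAD IgG and 2.31, 3.45 and 6.93 CPM in FAD CD38, and the groups overlapped. Its hippocampal levels were 1.37, 1.84 and 3.92 CPM in WT PBS, 3.34, 5.19 and 6.46 CPM in FAD IgG and 1.21, 4.65 and 7.00 CPM in FAD CD38. Ddx58 was called in hippocampus only (1.37, SE 0.31, adjusted p = 0.0079, in cortex 0.58, SE 0.28), and that call was lost without pool 5. Ifih1 was not called in cortex (0.26, SE 0.25), where its medians were 2.60 CPM in WT PBS, 3.61 CPM in FAD IgG and 2.09 CPM in FAD CD38. In hippocampus it was under the filter, with 35, 78 and 43 counts, medians of 0.942, 3.48 and 2.41 CPM, and a log2 fold change of 1.41 (adjusted p = 0.018) with no filter. Zbp1, a sensor of Z-form nucleic acids that can start necroptosis, had 8 counts in WT PBS, 40 in FAD IgG and 35 in FAD CD38 cortex and 4, 63 and 50 in hippocampus. Ifi204, a member of the DNA-binding family of IFI16, had 5, 40 and 52 counts in cortex and 7, 71 and 47 in hippocampus. Both were called with no filter in both regions, with pooled folds of FAD IgG over WT PBS of 6.59 and 19.0 for Zbp1 and 10.6 and 12.2 for Ifi204. Ifi207, of the same family, had 7 and 22 counts in WT PBS and FAD IgG cortex and 1 and 24 in hippocampus, and was called with no filter in hippocampus only (adjusted p = 0.0033). Dhx58 had 37 and 54 counts in cortex and 42 and 45 in hippocampus and was not called with no filter.

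The transcription factors of the set carry the signal itself. Irf9, the DNA-binding part of ISGF3, had 3.37, 5.73 and 8.20 CPM in WT PBS cortex, 7.87, 14.8 and 23.9 CPM in FAD IgG and 7.11, 14.9 and 19.4 CPM in FAD CD38. Hippocampal levels were 2.68, 4.97 and 6.21 CPM in WT PBS, 10.8, 15.2 and 18.7 CPM in FAD IgG and 6.31, 11.7 and 18.6 CPM in FAD CD38. The FAD mice were separate from WT in hippocampus, and in cortex the highest WT mouse lay above the lowest mouse of each FAD group. Irf9 rose by 1.46 (SE 0.20, adjusted p = 1.8e-05) and 1.66 (SE 0.24, adjusted p = 6.4e-05) on the log2 scale. Irf9 overlaps Rnf31 on the same strand, so some of its counts could belong to that gene. Stat2, the partner of IRF9 in ISGF3, had 3.84, 6.24 and 8.57 CPM in WT PBS cortex, 6.90, 8.42 and 14.95 CPM in FAD IgG and 5.42, 6.07 and 9.95 CPM in FAD CD38, and was not called there (0.69, SE 0.22, adjusted p = 0.085). In hippocampus Stat2 was called (0.95, SE 0.25, adjusted p = 0.027), with medians of 5.65 and 10.3 CPM, and the call was lost in 6 of 17 alternative analyses, among them leaving out pool 5, 6, 9, 10 or 11. Irf7, which drives further interferon production, rose by 1.09 in cortex (adjusted p = 0.043) and 1.75 in hippocampus (adjusted p = 0.00074). Its cortical call was lost in 5 of 17, among them leaving out pool 5, 8, 9 or 11. Irf1 was called in hippocampus (0.97, adjusted p = 0.044), a call lost in 9 of 17 and without any 1 of the 7 pools, and not in cortex (0.55, SE 0.29). Irf7 overlaps Phrf1 and Irf1 overlaps Gm17334 on the opposite strand, and the sources used here do not say whether counting used strand.

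PARP9 and its partner DTX3L form an ADP-ribosylating ubiquitin ligase, and TRIM30A is a regulator of innate signalling in mice. Trim30a had 1.09, 1.92 and 3.43 CPM in WT PBS cortex, 2.05, 5.10 and 13.4 CPM in FAD IgG and 4.498, 5.44 and 8.32 CPM in FAD CD38. In hippocampus it had 0.654, 1.81 and 2.88 CPM in WT PBS, 4.37, 8.79 and 14.5 CPM in FAD IgG and 2.99, 6.03 and 9.09 CPM in FAD CD38. No FAD mouse reached the WT range in hippocampus, and in cortex the lowest FAD IgG mouse did. Its log2 fold changes in FAD IgG against WT PBS were 1.28 (SE 0.27, adjusted p = 0.0042) and 2.38 (SE 0.32, adjusted p = 3.2e-05). Dtx3l was called in neither region (0.44, SE 0.34, and 0.96, SE 0.28, adjusted p = 0.058), with medians of 1.995 and 3.15 CPM in cortex and 2.48 and 4.18 CPM in hippocampus. Parp9 was tested in hippocampus only and was called (1.46, SE 0.38, adjusted p = 0.027), a call lost without pool 5, 6, 9, 10 or 11. In cortex Parp9 had 39, 71 and 60 counts in WT PBS, FAD IgG and FAD CD38. Dtx3l and Parp9 overlap on opposite strands, so their counts may not be separate. Parp14 and Sp100 were under the filter in both regions and were not called without it, with 26 and 55 counts of Parp14 and 51 and 61 of Sp100 in WT PBS and FAD IgG cortex and 27 and 52 of Parp14 and 36 and 69 of Sp100 in hippocampus.

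Among the members that passed the filter, the other induced genes held the largest change in each region. Lgals3bp, a secreted glycoprotein that binds galectin-3, had 12.6, 16.8 and 23.2 CPM in WT PBS cortex, 72.4, 91.4 and 115 CPM in FAD IgG and 57.6, 79.0 and 134 CPM in FAD CD38. Its hippocampal levels were 9.47, 13.2 and 19.4 CPM in WT PBS, 63.6, 81.2 and 185 CPM in FAD IgG and 31.5, 73.9 and 124 CPM in FAD CD38. Every FAD mouse lay above every WT mouse. Lgals3bp had the largest log2 fold change of the tested members in cortex, 2.53 (SE 0.14, 5.78-fold, adjusted p = 7.2e-12), and 2.82 (SE 0.25, adjusted p = 1.4e-07) in hippocampus. Ifi27l2a, a short hydrophobic protein of the ISG12 family, rose most in hippocampus, from a median of 3.85 CPM (1.24 to 7.02) in WT PBS to 44.7 CPM (19.5 to 81.1) in FAD IgG, with 31.2 CPM (23.3 to 48.8) in FAD CD38. Its log2 fold change there was 3.55 (SE 0.27, 11.7-fold, adjusted p = 1.6e-08), and 2.34 (SE 0.27, adjusted p = 3.2e-06) in cortex. Its relative Ifi27 had the smallest change among the called members, 0.58 (SE 0.14, adjusted p = 0.0098) and 0.63 (SE 0.14, adjusted p = 0.0071), and both calls were lost without pool 5. It had 62.5, 82.6 and 97.0 CPM in WT PBS and 86.6, 124 and 162 CPM in FAD IgG cortex, and 52.7, 112 and 132 CPM against 124, 173 and 186 CPM in hippocampus, so the groups overlapped in both. In cortex 7 of 8 tested genes of this group were called higher, including Rtp4 (1.301, SE 0.18), Slfn2 (0.94, SE 0.20), Ifi35 (0.76, SE 0.21) and Xaf1 (0.65, SE 0.17). In hippocampus 8 of 8 were called higher. Samd9l was called in hippocampus (1.40, SE 0.37) and not in cortex (0.79, SE 0.25). The cortical call of Ifi35 was lost without pool 5, 7, 8, 9 or 11 and that of Xaf1 without pool 6, 8, 9, 10 or 11. In hippocampus the calls were lost without pool 5, 6, 9 or 10 for Ifi35, without pool 5, 10 or 11 for Slfn2, and without pool 5, 6, 9 or 11 for Samd9l. Ifi44 was under the filter, with 6, 29 and 26 counts in WT PBS, FAD IgG and FAD CD38 cortex and 6, 45 and 20 in hippocampus, and was called without it in both regions.

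**Figure D2:**
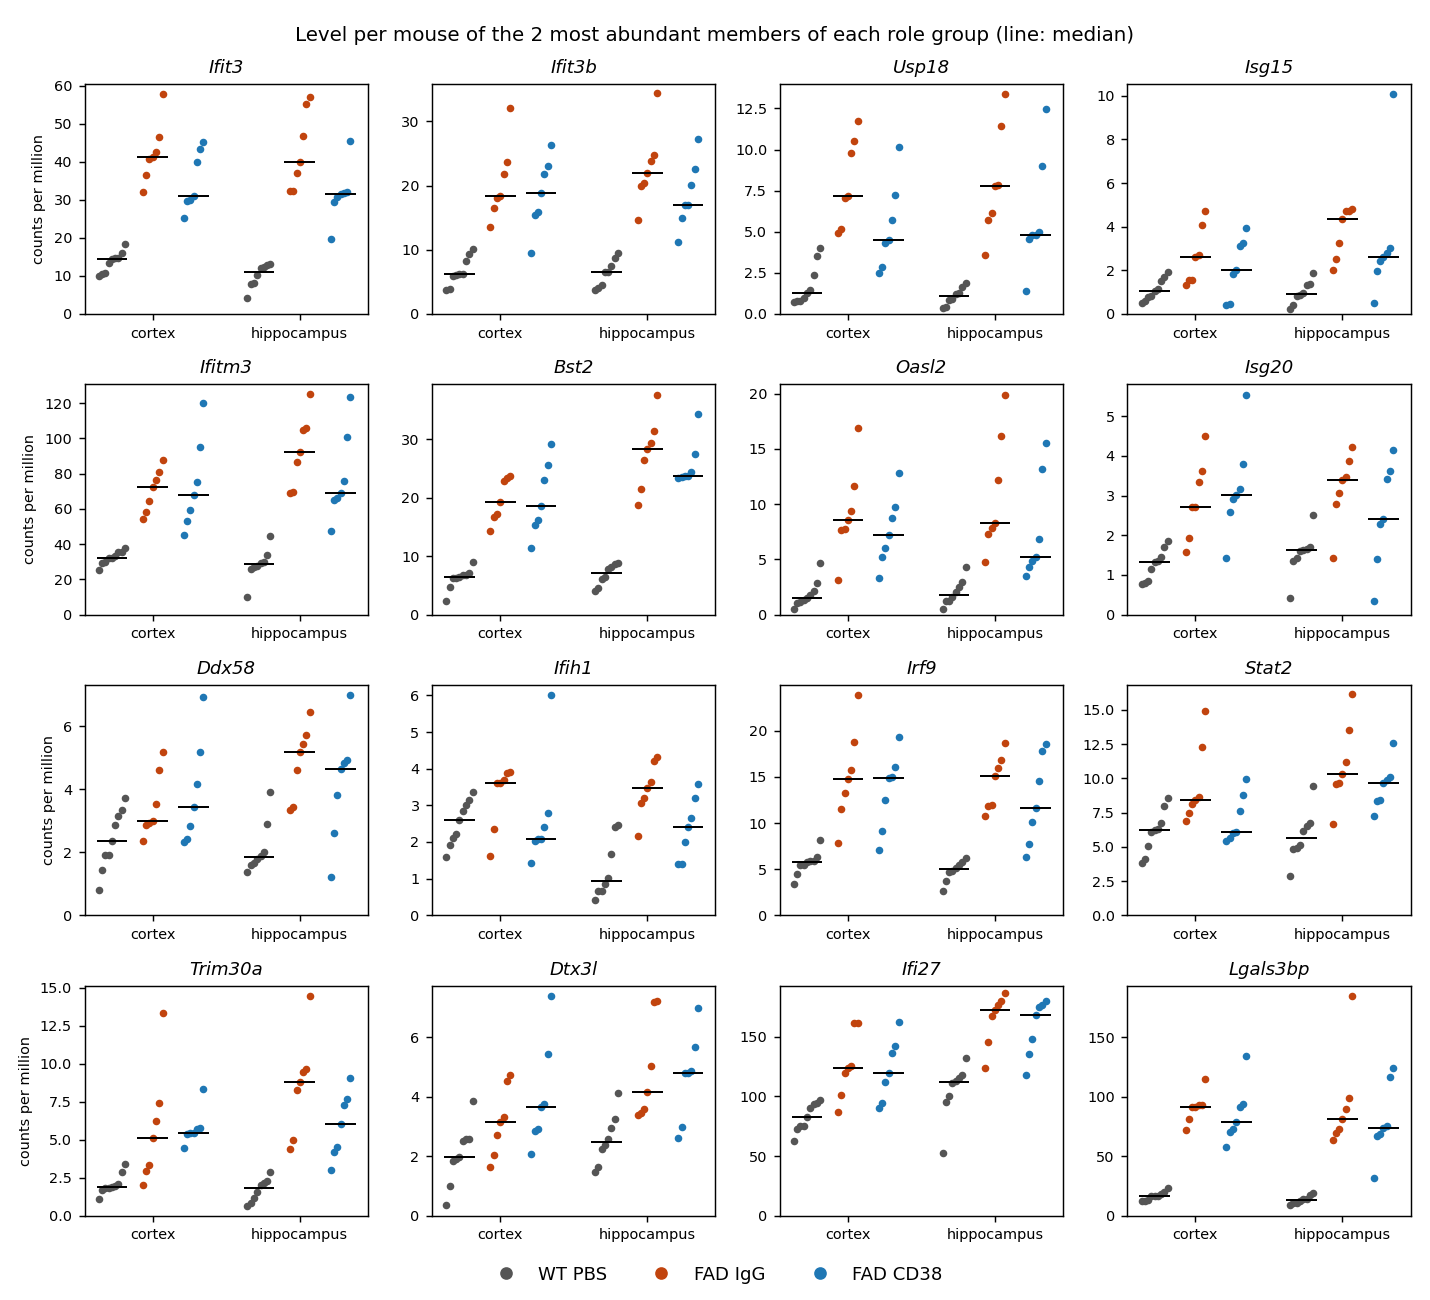
CPM per mouse of the 2 members with the most counts in each role group, in cortex and hippocampus, with each point 1 mouse, colours for the 3 groups and lines for the medians (vertical scales differ by gene). Ifit3, Ifitm3, Bst2 and Lgals3bp separate all FAD mice from WT mice in both regions, whereas Ddx58, Stat2 and Dtx3l overlap.

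In all, 13 members were under the filter in cortex and 14 in hippocampus. Their mean CPM was higher in FAD IgG than in WT PBS for 13 of 13 and 14 of 14, and 5 and 8 of them were called with no filter. Over all genes with no filter, 2.58% and 3.27% were called higher. Shares among all genes under the filter were not determined.

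The FAD CD38 mice were compared with the same WT mice, so the values below share their controls with those above. In cortex 17 of 28 tested members were called higher and 0 lower, against 3.3% of all genes tested, with a median log2 fold change of 0.997 (0.015 over all genes). In hippocampus 17 of 27 were called higher and 0 lower, against 4.56%, with a median of 1.32 (0.01 over all genes). Every FAD CD38 mouse lay above every WT mouse for 7 members in cortex and 9 in hippocampus, which held for 1.6% and 2.17% of all genes tested. The largest differences were again those of Lgals3bp (2.34, SE 0.14, in cortex) and Ifi27l2a (2.06, SE 0.26, in cortex and 3.26, SE 0.26, in hippocampus). Usp18 had 1.58 (SE 0.30) and 2.51 (SE 0.29), and Bst2 1.62 (SE 0.19) and 1.94 (SE 0.17). Rsad2 was called in FAD CD38 cortex (1.06, SE 0.27, adjusted p = 0.021), a call lost without pool 5, 6, 8, 9 or 11. Samd9l passed narrowly in cortex (0.82, SE 0.24, adjusted p = 0.0499) and was lost in 13 of 15 alternative analyses, among them leaving out any 1 pool. The call of Ifi27 in cortex (0.53, SE 0.13) was lost without pool 6 or 8. In hippocampus the call of Rsad2 (1.32, SE 0.29) was lost without pool 5, and that of Ifit2 (0.99, SE 0.27) without pool 5, 6, 7, 9 or 11. With the 3 wells of high ribosomal RNA left out, 19 of 27 tested members were called higher in FAD CD38 hippocampus and 23 of 27 in FAD IgG hippocampus. The share of all genes called in that fit was not determined.

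**Figure D3:**
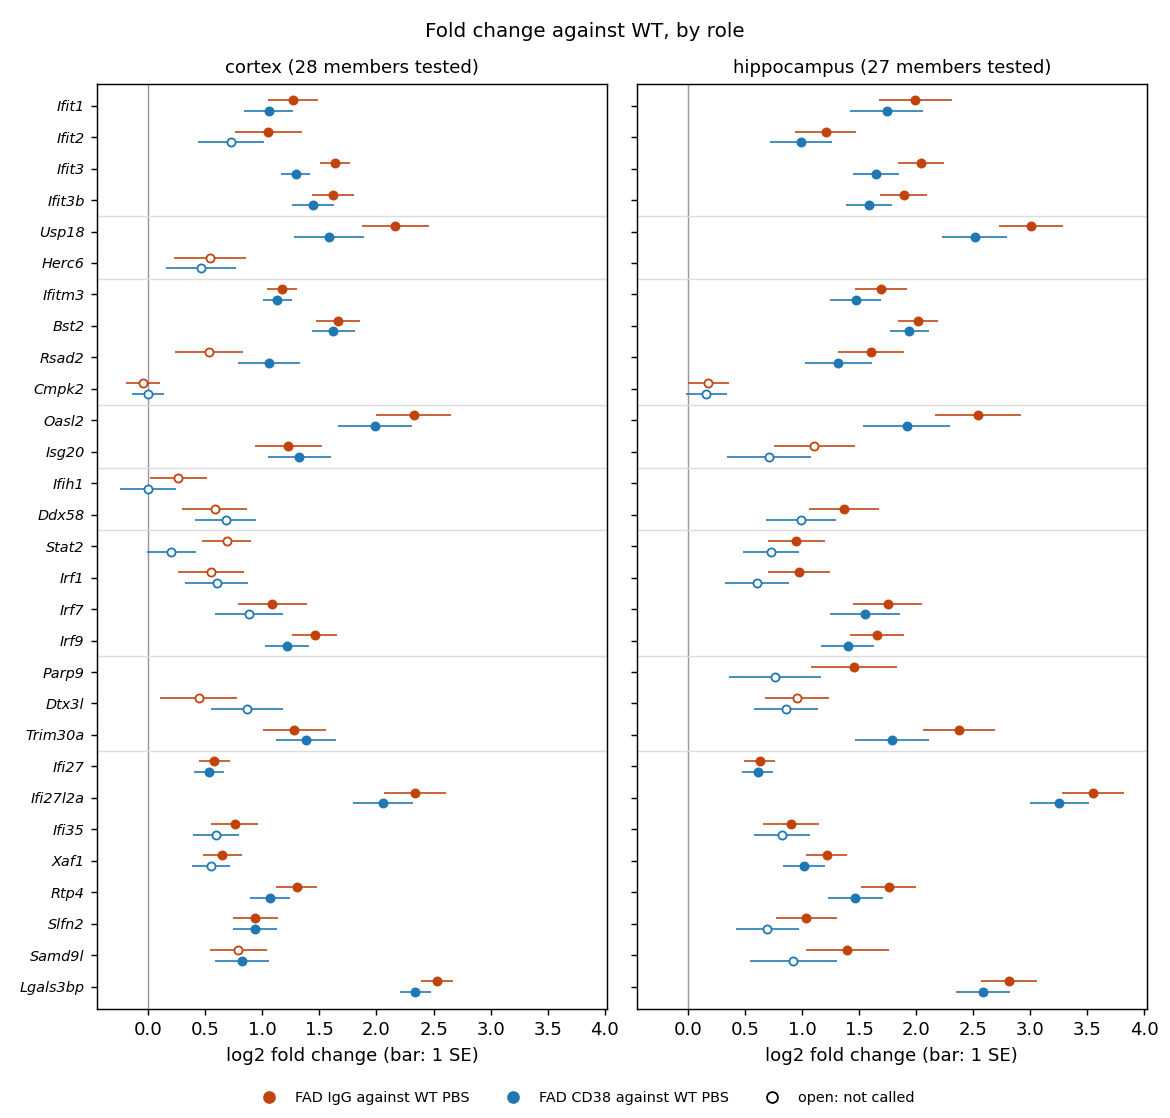
Log2 fold change against WT PBS of the tested members in cortex (left) and hippocampus (right), for FAD IgG and FAD CD38, with bars of 1 standard error and rows grouped by role. Filled points were called at an adjusted p under 0.05; the comparisons share their WT mice, and Cmpk2 lies near 0 in both regions.

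Whether the CD38 injection changed the set was addressed by FAD CD38 against FAD IgG, the comparison within 1 genotype. It called 0 of 28 tested members in cortex and 0 of 27 in hippocampus, in edgeR and also in DESeq2 and in limma voom. In edgeR, 0% of all genes tested were called in each region. At an unadjusted p under 0.05 there were 3 members in cortex (Ifit3, Usp18 and Stat2), where 1.5% of all genes were under it, and 0 in hippocampus (1.55%). Most of the fitted values lay below 0. In cortex 19 of 28 tested members had a log2 fold change below 0 (51.3% of all genes), with a median of -0.13 (-0.005 over all genes). In hippocampus 27 of 27 did (48.5% of all genes), with a median of -0.28 (0.005 over all genes) and a range from -0.70 for Parp9 to -0.01 for Cmpk2. Count and median moved when some wells were left out. With the 3 hippocampus wells over 15% ribosomal RNA left out, 22 of 27 lay below 0 with a median of -0.13, and without pool 9 20 of 26 did with a median of -0.14. By pool, the log2 ratio of the summed members in hippocampus was -0.80 in pool 7, -0.75 in pool 9 and -0.45 in pool 10, and between -0.03 and 0.01 in pools 5, 6 and 11. The FAD CD38 well of pool 7 and the FAD IgG well of pool 9 are among the wells of high ribosomal RNA. In cortex the sum was lower with CD38 in 4 of 6 pools, with ratios from -0.60 to 0.22, and the median of the tested members lay between -0.21 (without pool 10) and -0.07 (without pool 7) over the alternatives. This comparison shares the FAD IgG mice with the comparison of FAD IgG with WT, and genes of 1 set are not independent of each other. Median sums of the homeostatic microglial markers in FAD IgG and FAD CD38 were 564 and 512 CPM in cortex and 605 and 588 CPM in hippocampus. Those of the plaque-associated list were 1168 and 1106 CPM in cortex and 1293 and 1494 CPM in hippocampus.

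By gene, Ifit3 had -0.35 (SE 0.13) in cortex and -0.40 (SE 0.19) in hippocampus and was lower in the FAD CD38 mice of each of the 6 pools that held both groups, with log2 ratios from -0.53 to -0.22 in cortex and from -1.005 to -0.04 in hippocampus. Usp18 had -0.58 (SE 0.27) and -0.50 (SE 0.24), and Oasl2 -0.34 (SE 0.29) and -0.63 (SE 0.34). Within pools, Usp18 was higher in FAD CD38 than in FAD IgG in 1 of 6 pools in cortex and 2 of 6 in hippocampus, and Oasl2 was in 2 of 6 and 1 of 6. The FAD CD38 and FAD IgG mice overlapped for each of these genes. Stat2 had -0.48 (SE 0.22) and -0.22 (SE 0.24), and Parp9, tested in hippocampus only, -0.70 (SE 0.39). Values nearer to 0 or of mixed sign were found as well. Ifitm3 had -0.04 (SE 0.14) and -0.22 (SE 0.23), Bst2 -0.04 (SE 0.19) and -0.08 (SE 0.17), and Ifi27 -0.04 (SE 0.14) and -0.02 (SE 0.14). Within pools, Ifitm3 was higher in FAD CD38 than in FAD IgG in 4 of 6 pools in cortex and 0 of 6 in hippocampus. Trim30a was in 3 of 6 and 0 of 6. Rsad2 had 0.53 (SE 0.28) in cortex and -0.28 (SE 0.27) in hippocampus. Joining both regions of each mouse in 1 limma voom fit, 0 of 31 tested members were called for the mean of both regions (0% of all genes), with 3 at an unadjusted p under 0.05 (1.84% of all genes). These were Ifit3 (-0.37, SE 0.12), Usp18 (-0.51, SE 0.18) and Oasl2 (-0.48, SE 0.23). Here 26 of 31 lay below 0, with a median of -0.24 (0.007 over all genes). The difference of this comparison between regions called 0 of 31 members (0% of all genes), with 3 at an unadjusted p under 0.05 (2.39%). Those 3 were Trim30a (-0.67, SE 0.29), Rsad2 (-0.64, SE 0.28) and Ifi204 (-0.79, SE 0.39).

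**Figure D4:**
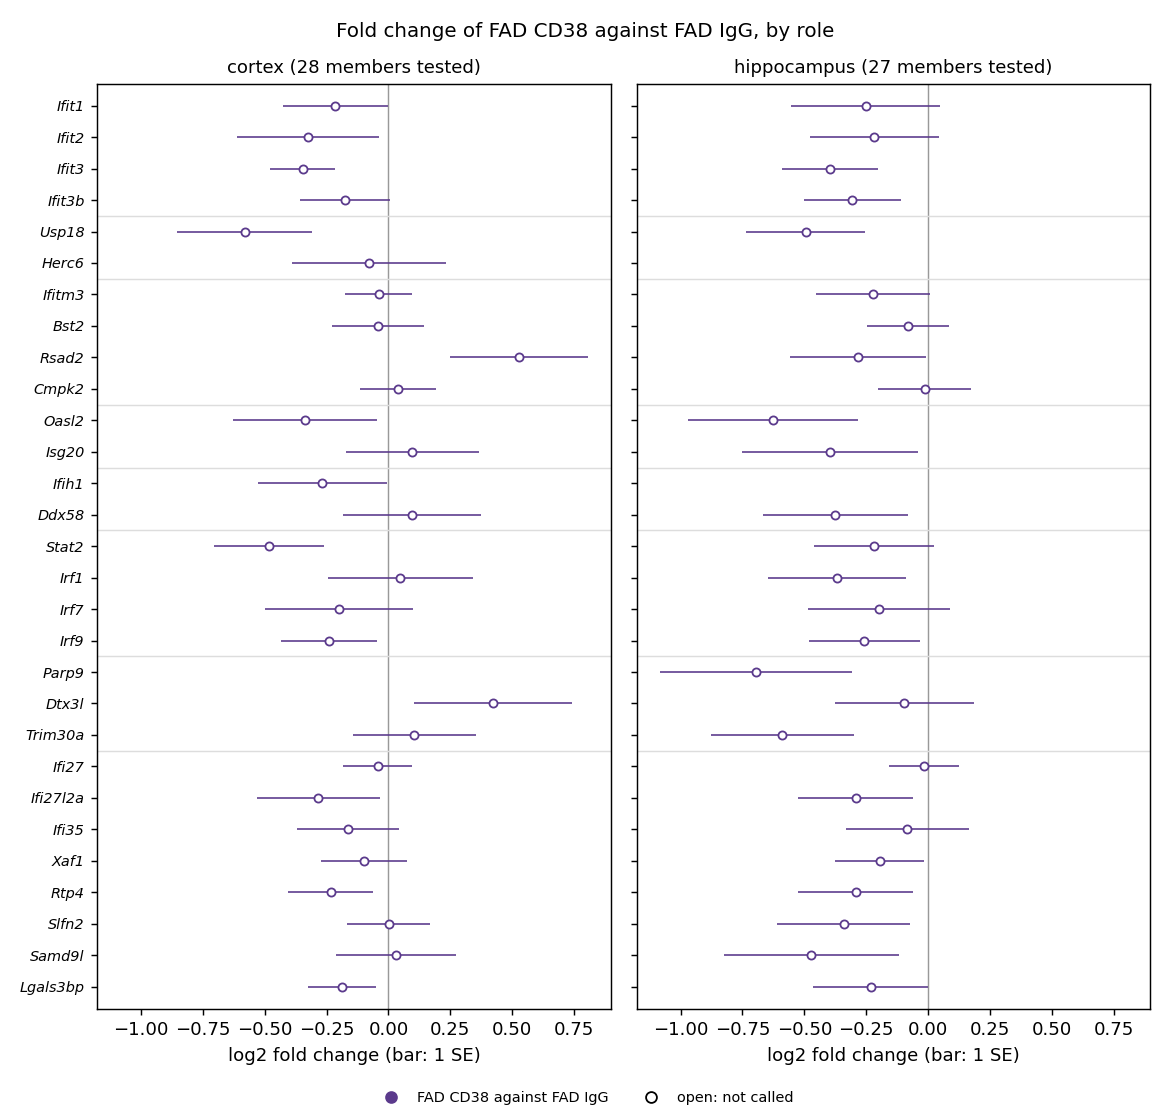
Log2 fold change of FAD CD38 against FAD IgG for the tested members in cortex (left) and hippocampus (right), with bars of 1 standard error and rows grouped by role. All points are open because 0 members were called; in hippocampus all 27 lie below 0, and in cortex 19 of 28.

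The FAD IgG change was compared between regions in the same limma voom fit. Of 31 tested members, 29 had a larger log2 fold change in hippocampus than in cortex, with a median difference of 0.46 (-0.01 over all genes). None was called, against 0.208% of all genes tested, and 10 were at an unadjusted p under 0.05 (8% of all genes). The members with the smallest p were Ifih1 (1.12, SE 0.29, adjusted p = 0.13), Trim30a (1.14, SE 0.30, adjusted p = 0.13), Ifi27l2a (1.08, SE 0.31, adjusted p = 0.20) and Ifitm3 (0.65, SE 0.21, adjusted p = 0.29). These 4 were called when wells were weighted by their quality, a fit for which the share of all genes called was not determined. A member of low level could pass the filter of this fit through its FAD wells alone. Ifi204 did so, with 5 WT PBS counts in cortex and 7 in hippocampus, and Ifih1 had 35 WT PBS counts in hippocampus. How many of the 31 would have passed on the WT wells alone was not determined. The WT mice enter this difference in both regions. In WT PBS hippocampus against WT PBS cortex, 6 of 31 members were called lower, against 13.3% of all genes, and 1 higher, against 13.5%. The count called lower is not far above what the share of all genes would give, so it does not set the members apart. Of the 31 members, 24 lay below 0 (77.4%), against 50.2% of all genes. Called lower in WT hippocampus were Ifih1 (-1.06, SE 0.22), Ifit1 (-0.66, SE 0.21), Ifi27l2a (-0.66, SE 0.24), Ifit3 (-0.53, SE 0.13), Xaf1 (-0.48, SE 0.15) and Cmpk2 (-0.47, SE 0.12). Ifi27 was higher there (0.29, SE 0.10). Ifit3 and Cmpk2 were called in each of 11 alternative analyses and Ifih1 in the 10 that tested it. The call of Ifit1 was lost without pool 5, 8 or 10, that of Ifi27l2a without pool 5, 7, 8, 9 or 10, that of Xaf1 without pool 5, 7 or 8, and that of Ifi27 without any 1 pool other than pool 8.

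**Figure D5:**
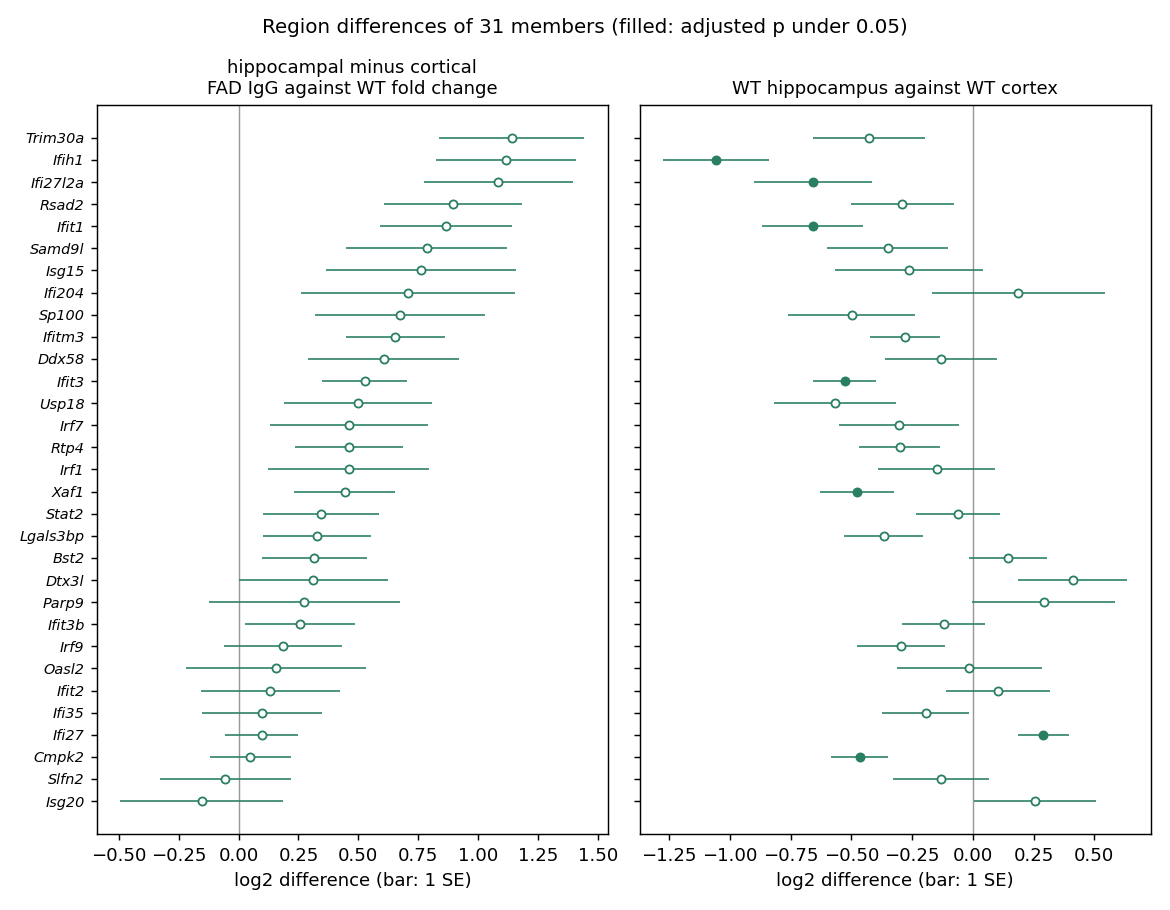
Left, the log2 fold change of FAD IgG against WT PBS in hippocampus minus that in cortex for 31 members, and right, the log2 difference between WT PBS hippocampus and WT PBS cortex, with bars of 1 standard error. Filled points had an adjusted p under 0.05; 29 of 31 members lie above 0 on the left and 24 of 31 below 0 on the right.

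Of the genes that make, receive and pass on the interferon signal, 55 were listed, of which 44 had a row, 31 were tested in cortex and 29 in hippocampus. In FAD IgG against WT PBS 13 of 31 were called higher in cortex (3.34% of all genes tested) and 15 of 29 in hippocampus (4.48%), and 0 lower. None of the listed interferon ligands was analysed here. Of the receptor chains, Ifnar2 rose by 0.55 (SE 0.15, adjusted p = 0.031) in cortex and 0.61 (SE 0.15, adjusted p = 0.017) in hippocampus, while Ifnar1 was not called (-0.03, SE 0.15, and 0.38, SE 0.24). Il10rb, shared by the receptors of interferon lambda and IL-10, rose by 0.63 (SE 0.16) and 0.85 (SE 0.21), and Ifngr1, a chain of the interferon gamma receptor, was called in hippocampus (0.68, SE 0.15) and not in cortex (0.37, SE 0.22), a difference that was not tested. The kinases Jak1 (0.21, SE 0.14, and 0.20, SE 0.26), Jak2 and Tyk2 were called in neither region. Stat3, which cytokines of the IL-6 family activate, rose by 0.90 (SE 0.14) and 1.05 (SE 0.17). Among sensors, the endosomal RNA receptor Tlr7 rose by 2.15 (SE 0.37) and 2.41 (SE 0.30), Tmem173, which encodes STING, by 1.06 (SE 0.21) and 1.04 (SE 0.28), and Irf5 by 1.45 (SE 0.29) and 1.18 (SE 0.23). Mavs in cortex and Tbk1 and Irf3 in both regions were not called. None of the 5 tested inhibitors (Pias1, Ptpn1, Ptpn2, Samhd1 and Adar) was called in either region. Other induced genes outside the set were mostly called, 7 of 9 in cortex and 7 of 8 in hippocampus. Among them was Psmb8, a subunit of the immunoproteasome (1.61, SE 0.18, and 1.995, SE 0.17). Psmb9, another such subunit, rose by 1.02 (SE 0.21) and 1.71 (SE 0.24), Tap1, of the peptide transporter for antigen presentation, by 1.27 (SE 0.33) and 1.15 (SE 0.24), and the chemokine Ccl5 by 1.68 (SE 0.33) and 2.33 (SE 0.36). Ifi30 and Apobec3 were called in both regions as well. Eif2ak2, which encodes the RNA-activated kinase PKR, rose by 1.44 (SE 0.28) and 1.43 (SE 0.23). In FAD CD38 against WT PBS 10 of 31 (3.3% of all genes tested) and 14 of 29 (4.56%) of these genes were called higher, and in FAD CD38 against FAD IgG 0 of 31 and 0 of 29 were called by edgeR.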

How the data were processed

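The authors deposited 1 table of raw counts, with genes as rows and wells as columns. The submitters' processing notes name bcl2fastq 2.17 and STAR 2.5.3a. For the build, the annotation, the counting program and the use of strand or molecular identifiers, the sources used here give nothing. Each deposited sample is a pool of mice, so the mouse, region, genotype and injection of a well were taken from its name and the deposited sample sheet, matched by mouse.

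The members and all gene lists were chosen with earlier results of these data known. Counts of each region were fitted over the whole table by the quasi-likelihood test of edgeR 4.0.16 with robust dispersions (R 4.3.3). Normalization was by TMM, genes were kept by filterByExpr (count 10, total 15), all 3 groups shared 1 fit, and the pool was an additive factor. Comparisons of regions and means over both regions used limma 3.58.1 (voom, the mouse as correlated block, the pool as a factor). Tests were two-sided, with Benjamini-Hochberg adjustment over all genes tested. CPM are counts per 1000000 counts of the well. With 1270918 counts in the shallowest well, a gene of a few CPM has only a few counts there. The code was tested on simulated counts.

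Values by group are given for the 2 members of highest mean CPM in each role group. Further members are named by the size of their change, by a difference between regions or by being under the filter, and some values were chosen after being seen. Alternatives were DESeq2 1.42.0, RLE factors, no filter, a mean of at least 10 counts, no pool term, only the 2 groups compared, voom with sample quality weights, each pool left out, wells over 15% ribosomal RNA left out, and the mouse whose labels conflict placed in FAD IgG or in FAD CD38. Promoters were taken from RefSeq (GRCm38.p6) by symbol. The 3′ ends and gene overlaps were read from the GENCODE mouse annotation of GRCm38. Each pool holds mice of several groups, so the pool factor blocks the comparisons, and the fit without it is among the alternatives. No label pairs single mice across groups. Lists of B and plasma cells and of neutrophils and monocytes were summed too. B and plasma cell genes summed to at most 2.77 CPM in any well of the 3 groups and neutrophil and monocyte genes to at most 12.8 CPM. Some listed genes are not reported here.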

Additional observations from a re-analysis of the deposited data

Results flagged for a closer look

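The members given by mouse, and the summed level, formed 102 groups of values over the groups and regions. In 7 of them a single mouse stood apart from the rest, and some mice did so more than once. Chance alone flags about 1 in 20 groups, so about 5%. In hippocampus of FAD CD38, the mouse of pool 8 was highest for Isg15, with 10.1 CPM against 3.03 CPM in the next mouse, and for Bst2, with 34.3 against 27.6 CPM. In FAD CD38 cortex the mouse of pool 5 was highest for Ifih1, with 6.01 against 2.80 CPM, and for Trim30a, with 8.32 against 5.78 CPM. In WT PBS hippocampus a mouse of pool 8 was lowest for Ifi27, with 52.7 against 94.9 CPM, and for the summed level of the members, with 155 against 230.3 CPM. Ribosomal RNA genes took 23.7% of its counts. In FAD IgG hippocampus the mouse of pool 9 was highest for Lgals3bp, with 185 against 98.7 CPM, and ribosomal RNA genes took 15.3% of its counts.

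The mouse of pool 8 with conflicting labels (CD38 in the sample sheet, IgG in the well name) entered no comparison. Its members summed to 788.6 CPM in cortex and 977 CPM in hippocampus, above the highest WT PBS mice, at 286 and 288 CPM. Both labels place it in a FAD group.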

How the results depend on the processing

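The counts of members called higher or lower in the 6 comparisons within a region stayed within 1.5 times their value under the 17 alternatives. In FAD IgG against WT PBS they ran from 14 to 24 in cortex and 16 to 32 in hippocampus, and in FAD CD38 against WT PBS from 14 to 21 and 12 to 24, the highest with no filter or with quality weights. FAD CD38 against FAD IgG gave 0 under every one of them. Of the single calls, 13 of 19 and 16 of 24 in FAD IgG against WT PBS, and 14 of 17 and 15 of 17 in FAD CD38 against WT PBS, held in every alternative that tested the gene, and no call changed sign. For the difference of the FAD IgG change between regions, 4 members were called with sample quality weights and 0 otherwise. The share of all genes called with these weights was not determined. In WT PBS hippocampus against cortex 7 were called, and 4 to 8 when 1 pool was left out, with 4 without pool 5, of which 1, Herc6, was not tested with all pools. The cause was not tested. Without the pool as a block, 19 members were called higher in cortex and 25 in hippocampus in FAD IgG against WT PBS, and 17 and 18 in FAD CD38 against WT PBS. Among the alternatives in this section, the share of all genes called was determined only with no filter, for FAD IgG against WT PBS. Whether the other counts moved with those of all genes was therefore not tested. Members of under about 3 CPM rest on few counts, and a difference in them may not be detectable at this depth.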
